A study of Mus musculus with 9 samples.

Results

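The genes described here encode BMP ligands (Bmp2, Bmp4, Bmp6 and Bmp7) and the proteins that hold BMP signals back outside or at the surface of the cell (Nog, Chrdl1, Grem1, Fst, Bmper and Bambi). They were chosen by name, through the Ensembl identifiers of these mouse symbols, and are 10 of the 55704 genes in the deposited table. Bulk RNA-seq was performed on neural stem cells (NSCs) from the subventricular zone of adult C57BL/6 mice aged 8 to 9 weeks, in 3 groups of 3 libraries. The bFGF/EGF-treated NSCs grew in proliferation medium and were collected at day 0 as proliferating controls. In bFGF/BMP4-treated NSCs, EGF had been replaced by BMP4 for 6 days, and in BMP4-treated NSCs both mitogens had been replaced by BMP4 for the same 6 days. Each factor was used at 20 ng/mL in DMEM/F12. The supplement also differed, being B27 without vitamin A in the proliferation medium and B27 in both BMP4 media. Cells for the BMP4 media had gone through at least 3 passages and were plated on laminin and poly-L-ornithine. One isolation pooled 2 female and 2 male mice. The labels number the replicates without saying whether each came from its own isolation or culture, so the p-values measure only the spread between these samples, which may be technical. The control is labelled day 0, and whether it was plated in the same way, and how long before collection, is not given. In a comparison with it, the added BMP4, the removed mitogens, the supplement, any difference in plating and the time in culture cannot be told apart.

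BMPs are secreted dimers that bring type I and type II receptors together, and the activated receptors phosphorylate Smad1, Smad5 and Smad9, which enter the nucleus with Smad4. Secreted antagonists such as noggin bind the ligand and keep it from the receptor, and many of them are themselves targets of the pathway, which makes a negative feedback loop. In the adult subventricular zone, BMP signals are known to keep NSCs quiescent, and noggin made in the niche to oppose them. The BMP4 in the medium was recombinant protein, so the transcripts below are what the cells themselves made.

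Values are FPKM (fragments per kilobase of gene, relative to all fragments of the library), which are scaled for gene length and can be compared between genes. The rebuilt fragment numbers added up to between 15892854 and 17419822 per library, and they give the counting basis of low values. Each fold change is a difference of mean log2(FPKM + 0.1), and a gene was called changed when limma, fitted over 20207 genes, gave an adjusted p no greater than 0.05 together with a change of 2-fold or more. Pearson's correlation of the log2 values across these genes, which are not independent of each other, was 0.95 to 0.964 within groups and 0.81 to 0.915 between groups. The labels were checked on feedback and target genes of the pathway: Id1 was at 21.0 ± 6.39 FPKM in the control, 142.6 ± 40.8 FPKM with bFGF/BMP4 and 228.1 ± 70.8 FPKM with BMP4 alone (SD, n = 3 each), and Id3 at 31.1, 105.2 and 284.7 FPKM. Smad6, an inhibitory Smad, was at 0 fragments in each bFGF/EGF library. Its level was at least 461-fold higher in bFGF/BMP4 and at least 671-fold higher in BMP4, taking 3 fragments per library as the floor. These genes set the control apart from both BMP4 groups. Between the BMP4 groups, Id1 and Smad6 overlapped, and only Id3 was called (log2 fold change 1.43, adjusted p = 0.0062, limma). The check therefore says less about the labels of those groups.

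Ligands and antagonists both differed between the groups. Nog, near the detection limit in proliferating cells, had one of the largest rises of all genes tested with either BMP4 medium. Bmp7, the main BMP transcript of the proliferating cells, fell in both. Bmp6, Fst and Grem1 were highest with BMP4 alone, where bFGF was absent. Of the 10 genes, 6 were called in bFGF/BMP4 against bFGF/EGF, with 4 higher and 2 lower. Among all genes tested, 30.6% were called there, 16.5% higher and 14.1% lower. In BMP4 against bFGF/EGF, 8 of the 10 were called, 6 higher and 2 lower, against 36.6% of all genes (21.3% higher and 15.4% lower). BMP4 against bFGF/BMP4, the comparison of cells at the same day that differ in bFGF, called 6 of the 10, with 4 higher and 2 lower, against 13.5% of all genes (8.41% higher and 5.14% lower). The first 2 comparisons share the control libraries and are not independent of each other. Bmp4 did not pass the filter of a mean of 0.1 FPKM, and Bmp6 and Grem1 passed it with a group below that level.

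**Figure D1:**
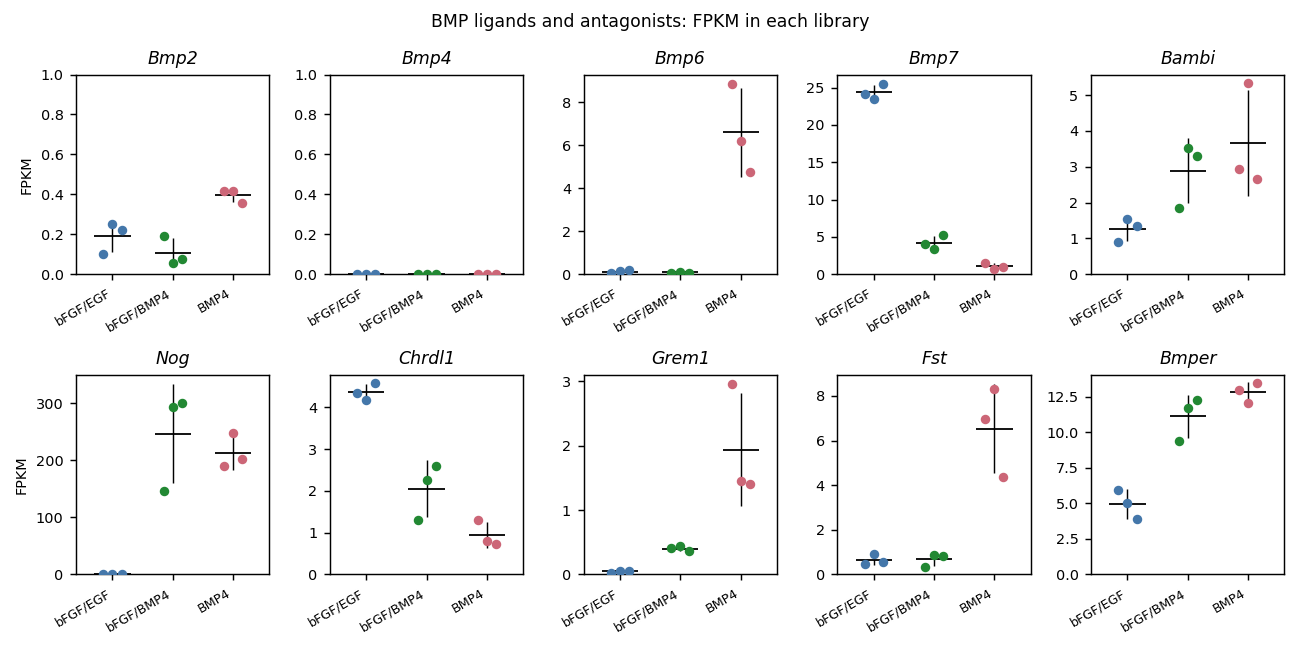
FPKM (linear axis from 0) of each gene in each of the 9 libraries, by group, with a horizontal line at the mean and a vertical line of 1 SD (n = 3). Nog lies below 1 FPKM in the bFGF/EGF libraries and above 146 FPKM in the others, Bmp7 falls from group to group, and Bmp6, Fst and Grem1 stand highest in BMP4.

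Among the ligands, Bmp7 (chromosome 2 of GRCm39, 172709805 to 172782410, minus strand), a BMP of the same subgroup as Bmp6, was the most abundant in proliferating cells. Its level was 24.1, 23.5 and 25.5 FPKM in the 3 bFGF/EGF libraries, 4.01, 3.42 and 5.21 FPKM in bFGF/BMP4, and 1.52, 0.707 and 0.935 FPKM in BMP4. No library of one group reached the range of another, and the order bFGF/EGF, bFGF/BMP4, BMP4 held between all neighbours. The fall from bFGF/EGF was a log2 fold change of -2.52 in bFGF/BMP4 (standard error 0.24, adjusted p = 2.2e-05, limma) and -4.47 in BMP4 (standard error 0.24, adjusted p = 4.2e-07, limma). BMP4 was below bFGF/BMP4 by a further -1.94 on the log2 scale (standard error 0.24, adjusted p = 0.00034, limma). In terms of the group means, Bmp7 was 5.78-fold lower in bFGF/BMP4 than in bFGF/EGF and 23.1-fold lower in BMP4.

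Bmp6 (chromosome 13, 38529065 to 38684280, plus strand) was near the detection limit in every library that had received bFGF. The bFGF/EGF libraries had 0.0452, 0.130 and 0.174 FPKM, from 3, 8 and 12 fragments. The bFGF/BMP4 libraries had 0.0638, 0.117 and 0.0523 FPKM, from 4, 7 and 3 fragments. In BMP4, Bmp6 was at 8.84, 6.21 and 4.74 FPKM, from 560, 392 and 305 fragments. All 3 BMP4 libraries were thus far above the other 6, which overlapped with each other. The log2 fold change of BMP4 was 4.96 against bFGF/EGF (standard error 0.34, adjusted p = 1.8e-06, limma) and 5.21 against bFGF/BMP4 (standard error 0.34, adjusted p = 8.8e-06, limma). By the second value Bmp6 ranked 16 from the top among 20207 genes. The group mean in BMP4 was 84.9 times that in bFGF/BMP4, a ratio that rests on the few fragments of the latter. Between bFGF/BMP4 and bFGF/EGF the difference was -0.25 on the log2 scale (95% interval -1.02 to 0.52, adjusted p = 0.58, limma). Exons of Bmp6 share 226 bases with those of Txndc5, a gene read in the other direction, and the strand setting of the counting is not given in the sources used here. Txndc5 was at 32.6 FPKM or more in every library, including those with 3 to 12 Bmp6 fragments.

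Bmp2 (chromosome 2, 133394079 to 133404816, plus strand), a close relative of Bmp4, stayed below 0.5 FPKM everywhere. It had 6, 14 and 14 fragments in the bFGF/EGF libraries, 11, 3 and 4 in bFGF/BMP4, and 24, 24 and 21 in BMP4. Its FPKM was 0.19 ± 0.080, 0.108 ± 0.074 and 0.397 ± 0.0336 (SD, n = 3 each). The BMP4 libraries were above all others, while bFGF/EGF and bFGF/BMP4 overlapped. Bmp2 was called higher in BMP4 than in bFGF/BMP4, by 1.31 on the log2 scale (standard error 0.38, adjusted p = 0.034, limma), and missed the threshold against bFGF/EGF (0.81, 95% interval -0.03 to 1.66, adjusted p = 0.095, limma). The call was lost without replicate 2 or 3 of bFGF/BMP4 and without any one replicate of BMP4, with log2 fold changes of 1.13 to 1.37 and adjusted p of 0.068 to 0.11 in those fits. With limma-voom on the fragment numbers the difference from bFGF/EGF was called, at 1.13 (adjusted p = 0.046).

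Bmp4 itself (chromosome 14, 46620250 to 46636745, minus strand) was listed at 0 in all 9 libraries. At this depth, 0 fragments allow up to 3 in a library. Endogenous Bmp4 transcript was thus not detected in any group, whether or not the protein had been added. Of its 5242 exon bases, 452 are shared with the non-coding gene Gm15217 and 1178 with Gm15222. Both lie on the other strand and had at most 0.037 FPKM. The strand setting is not given, so whether fragments in the shared bases were left out of the counting cannot be told.

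The sum of the 4 ligands was 23.9 to 25.9 FPKM in the bFGF/EGF libraries, 3.59 to 5.34 FPKM in bFGF/BMP4 and 6.04 to 10.8 FPKM in BMP4. Bmp7 made up 98.4% to 99.4% of it in bFGF/EGF and 94.0% to 97.6% in bFGF/BMP4. In BMP4, Bmp6 made up 78.6% to 84.7% and Bmp7 9.64% to 15.5%. The main ligand transcript in BMP4-treated NSCs was thus a different gene from that in both groups with bFGF.

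Among the antagonists, Nog (chromosome 11, 89191464 to 89193158, minus strand, a gene with a single exon) encodes noggin, which wraps around BMP dimers and covers their receptor sites. The 3 bFGF/EGF libraries had 0.347, 0.522 and 0.434 FPKM, from 10, 14 and 13 fragments. In the bFGF/BMP4 libraries Nog was at 146, 293 and 300 FPKM, and in the BMP4 libraries at 191, 248 and 202 FPKM. The lowest treated library had 3985 fragments, and no treated library came near the control range. The log2 fold change was 8.79 in bFGF/BMP4 (standard error 0.26, adjusted p = 2.1e-08, limma) and 8.65 in BMP4 (standard error 0.26, adjusted p = 1.4e-08, limma). These were ranks 4 and 12 from the top among all genes tested. As ratios of group means, the rises were 567-fold and 491-fold, values that rest on the few fragments of the control. The 2 treated groups overlapped, replicate 1 of bFGF/BMP4 being the lowest of the 6 libraries, and their difference was -0.14 on the log2 scale (95% interval -0.73 to 0.44, adjusted p = 0.76, limma).

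Chrdl1 (chromosome X, 142068670 to 142177258, minus strand), a chordin-like protein that binds BMP4, moved in the opposite direction. It was at 4.34, 4.17 and 4.58 FPKM in bFGF/EGF, 1.30, 2.27 and 2.61 FPKM in bFGF/BMP4, and 1.31, 0.804 and 0.736 FPKM in BMP4. The control libraries were above all treated ones, and the 2 treated groups overlapped through replicate 1 of each. Chrdl1 was lower than in bFGF/EGF by log2 fold changes of -1.10 in bFGF/BMP4 (standard error 0.28, adjusted p = 0.0083, limma) and -2.13 in BMP4 (standard error 0.28, adjusted p = 0.00012, limma). BMP4 against bFGF/BMP4 gave -1.02 (standard error 0.28, adjusted p = 0.026, limma). This last call was lost when only the 2 groups were fitted (adjusted p = 0.091) and without replicate 2 or 3 of either group (log2 fold changes of -0.935 to -0.832). The call in bFGF/BMP4 against bFGF/EGF was lost without replicate 1 of bFGF/BMP4, where the log2 fold change was -0.82.

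Grem1 (chromosome 2, 113576509 to 113589000, minus strand) encodes gremlin 1, an antagonist of the DAN family with a preference for BMP2 and BMP4. Its FPKM was 0.0284, 0.0610 and 0.0546 in bFGF/EGF, from 2, 4 and 4 fragments. The bFGF/BMP4 libraries had 0.405, 0.440 and 0.361 FPKM, and the BMP4 libraries 2.96, 1.46 and 1.40 FPKM. The 3 groups did not overlap, in the order bFGF/EGF, bFGF/BMP4, BMP4. The log2 fold changes were 1.77 in bFGF/BMP4 (standard error 0.33, adjusted p = 0.0015, limma) and 3.71 in BMP4 (standard error 0.33, adjusted p = 8.4e-06, limma) against bFGF/EGF. BMP4 exceeded bFGF/BMP4 by 1.94 (standard error 0.33, adjusted p = 0.002, limma). Because the control values are below the pseudocount, the first of these fell to 0.42 with a pseudocount of 1 (adjusted p = 0.077) and was 2.95 with limma-voom on the fragment numbers.

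Fst (chromosome 13, 114588731 to 114595521, minus strand) encodes follistatin, which neutralises activins and, less tightly, several BMPs. It was at 0.461, 0.923 and 0.555 FPKM in bFGF/EGF, 0.353, 0.866 and 0.830 FPKM in bFGF/BMP4, and 6.95, 8.29 and 4.35 FPKM in BMP4. The first 2 groups overlapped, and the lowest BMP4 library was above the highest of the other 6. The log2 fold change of BMP4 was 3.15 against bFGF/EGF (standard error 0.37, adjusted p = 5.5e-05, limma) and 3.11 against bFGF/BMP4 (standard error 0.37, adjusted p = 0.00024, limma). In bFGF/BMP4 against bFGF/EGF it was 0.04, with a 95% interval of -0.79 to 0.86 (adjusted p = 0.95, limma). Fst therefore had the same pattern over the groups as Bmp6, at a higher baseline. Its exons share 115 bases with the non-coding gene Gm47040 on the other strand, which had at most 0.814 FPKM.

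Bmper (chromosome 9, 23134325 to 23396509, plus strand) encodes a secreted protein with chordin-like repeats that can both block and enhance BMP signals. It was at 5.98, 5.04 and 3.90 FPKM in bFGF/EGF, 9.40, 11.7 and 12.3 FPKM in bFGF/BMP4, and 12.95, 12.1 and 13.5 FPKM in BMP4. All treated libraries were above all controls, and the treated groups overlapped. The log2 fold changes were 1.16 (standard error 0.17, adjusted p = 3e-04, limma) and 1.37 (standard error 0.17, adjusted p = 7.3e-05, limma). Without replicate 3 of bFGF/EGF the first was 0.9978, just under the fold threshold. Between BMP4 and bFGF/BMP4 the difference was 0.21 (95% interval -0.16 to 0.59, adjusted p = 0.44, limma).

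Bambi (chromosome 18, 3507871 to 3516404, plus strand) encodes a pseudoreceptor in the membrane that resembles a type I receptor but lacks the kinase. The bFGF/EGF libraries had 0.893, 1.53 and 1.35 FPKM, the bFGF/BMP4 libraries 1.85, 3.52 and 3.30 FPKM, and the BMP4 libraries 2.95, 5.35 and 2.67 FPKM. Treated and control libraries did not overlap, and the 2 treated groups did. Bambi rose by log2 fold changes of 1.12 in bFGF/BMP4 (standard error 0.33, adjusted p = 0.018, limma) and 1.43 in BMP4 (standard error 0.33, adjusted p = 0.0043, limma). The first call was lost without replicate 1 of bFGF/EGF or without replicate 2 or 3 of bFGF/BMP4 (log2 fold changes of 0.91 to 1.00, adjusted p of 0.062 to 0.069). BMP4 and bFGF/BMP4 differed by 0.31 (95% interval -0.42 to 1.05, adjusted p = 0.57, limma).

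**Figure D2:**
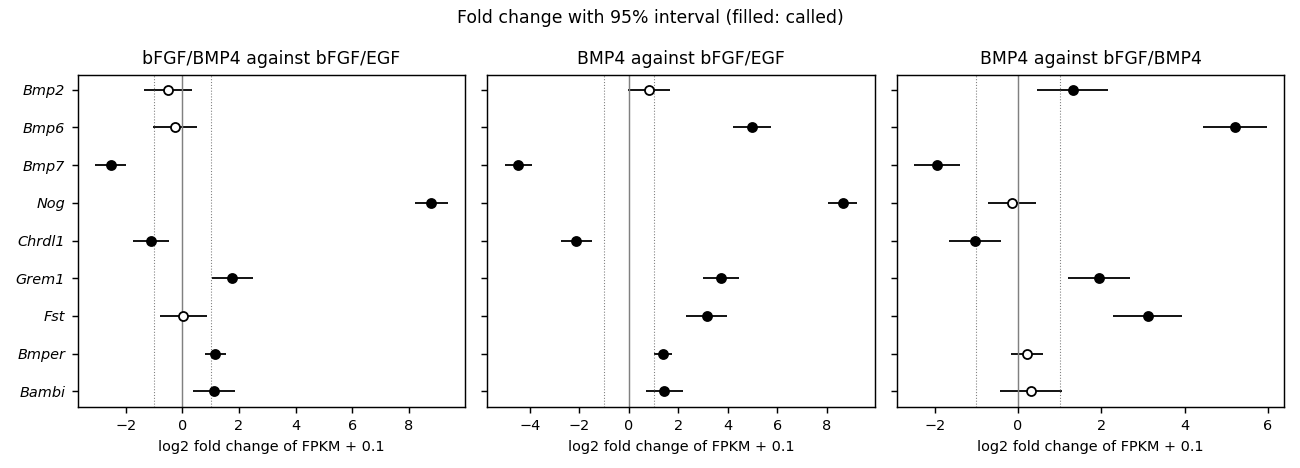
Log2 fold change of FPKM + 0.1 with its 95% interval (limma, n = 3 libraries a group) for the 9 genes tested, in the 3 comparisons. Filled points passed the threshold, dotted lines mark a fold change of 2, and the scale differs between panels. Nog, Bmper and Bambi are open in BMP4 against bFGF/BMP4, where Bmp6, Fst, Grem1 and Bmp2 lie to the right and Bmp7 and Chrdl1 to the left.

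The genes followed 3 patterns over the groups, with Bmp2 and Bmp4 outside them. Nog, Bmper and Bambi were above the control with either BMP4 medium, and no difference between the BMP4 groups passed the threshold. Bmp6 and Fst were higher in BMP4 than in both other groups, and Grem1 rose in bFGF/BMP4 and again in BMP4. Bmp7 and Chrdl1 fell in bFGF/BMP4 and further in BMP4. For Chrdl1 the 2 BMP4 groups overlapped, and the call between them was lost under 7 of 18 alternative settings. The 6 antagonists together had a median change of 1.14 on the log2 scale in bFGF/BMP4 against the control, 2.29 in BMP4 against the control and 0.26 in BMP4 against bFGF/BMP4, where the medians over all genes tested were 0.06, 0.10 and 0. Their summed level was 10.9 to 12.3 FPKM in the bFGF/EGF libraries, 160 to 319 FPKM in bFGF/BMP4 and 218 to 276 FPKM in BMP4. In bFGF/EGF, Bmper (35.9% to 49.6%) and Chrdl1 (34.1% to 42.1%) made up most of the sum, and Nog 2.88% to 4.26%. Nog then made up 91.7% to 94.0% in bFGF/BMP4 and 87.5% to 89.9% in BMP4.

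**Figure D3:**
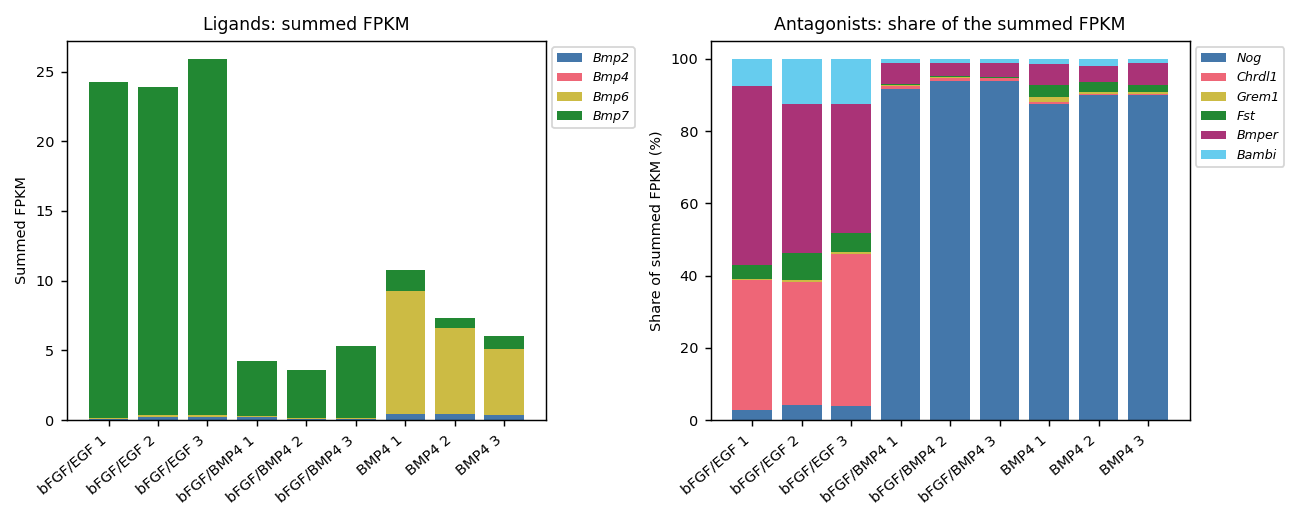
Summed FPKM of the 4 ligands (left, stacked bars from 0) and the share of each gene in the summed FPKM of the 6 antagonists in percent (right), in each library. The ligand sum is made of Bmp7 in both groups with bFGF and mostly of Bmp6 in BMP4, and Nog fills at least 87.5% of the antagonist sum in the treated libraries.

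Promoter sequences from RefSeq (build GRCm38.p6) were searched for 4 of the 10 genes. Those of the 3 genes among them that rose with BMP4 are shown, as the 250 bases before the transcription start, 5′ to 3′ on the strand of the gene, since the results turn on their change of level. Capitals mark matches to GGCGCC or GGAGCC, the GC-rich elements bound by Smad1 and Smad5, searched on both strands (GGAGCC reads GGCTCC on the other).
Bmp6, chr13:38345466-38345715, plus strand: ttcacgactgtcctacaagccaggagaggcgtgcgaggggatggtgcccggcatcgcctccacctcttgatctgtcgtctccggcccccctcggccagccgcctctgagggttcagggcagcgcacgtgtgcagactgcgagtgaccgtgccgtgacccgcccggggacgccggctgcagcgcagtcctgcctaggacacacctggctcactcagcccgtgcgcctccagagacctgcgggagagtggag
Grem1, chr2:113758649-113758898, minus strand: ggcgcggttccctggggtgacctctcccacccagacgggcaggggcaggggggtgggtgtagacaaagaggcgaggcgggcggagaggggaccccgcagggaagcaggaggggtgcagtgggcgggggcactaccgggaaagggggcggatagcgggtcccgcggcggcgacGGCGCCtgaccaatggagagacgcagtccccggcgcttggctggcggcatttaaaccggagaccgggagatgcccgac
Bmper, chr9:23222826-23223075, plus strand: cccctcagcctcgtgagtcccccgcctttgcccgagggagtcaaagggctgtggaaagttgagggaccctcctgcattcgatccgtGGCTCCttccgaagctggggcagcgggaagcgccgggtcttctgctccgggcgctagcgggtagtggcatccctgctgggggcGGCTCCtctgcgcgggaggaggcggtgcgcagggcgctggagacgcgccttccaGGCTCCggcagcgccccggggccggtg

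The Grem1 window held 1 GGCGCC, a motif found in 11.87% of the 32851 promoter windows of 300 bases in the table. The Bmper window held GGAGCC 3 times, and 30.85% of all windows held it at least once. Bmp6 had neither. The window of Bmp4, which is not shown, held 1 GGAGCC, although Bmp4 was at 0 FPKM in every library. A match was therefore not limited to genes that rose with BMP4. The palindrome GTCTAGAC (0.21% of windows) and the bipartite element known from the Id1 promoter, GGCGCC followed after 5 bases by GTCT (0.07%), were in none of the windows of Bmp4, Bmp6, Grem1 and Bmper. All 3 sequences shown were rich in G and C (68.8%, 72.0% and 71.6%, against a median of 52.4% over all promoters), and a match to a GC-rich motif is more frequent in such sequence. These are matches of letters, not measured binding sites. The promoters of Nog, Fst and Bambi, which also rose in BMP4 against bFGF/EGF, were not searched.

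For each gene with a mean of at least 1 FPKM, the protein-coding genes with the most similar profile were found by Pearson's r of log2(FPKM + 0.1) over the 9 libraries, as a description. The libraries fall into 3 groups, so a high r says mainly that the order and spacing of the group levels are alike. Closest to Bmp6 were C3, complement component 3, at 0.00381 FPKM in the control, 0.00826 FPKM with bFGF/BMP4 and 59.3 FPKM with BMP4 (r = 0.992), and Anks1 (0.991). Fst was closest to Pltp, a phospholipid transfer protein at 1.66, 1.69 and 14.99 FPKM (0.993), and to Nek6 (0.991). Bmp7 was closest to Mmp15, a membrane-bound metalloproteinase at 148.9, 35.2 and 13.7 FPKM (0.995), and to Arhgap33 (0.99). For Nog these were Adhfe1 (0.998) and Rnf182 (0.998), with 586 genes above an r of 0.95. Bmper was most like Asrgl1 (0.992) and Mtmr10 (0.99), and Chrdl1 most like Mark1 (0.974) and Lclat1 (0.972). Bambi was most like Rhob (0.974) and Kdelr3 (0.963), and had 6 genes above an r of 0.95.

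The other ligands and antagonists of the pathway were taken from lists. Of 17 other BMP and GDF ligands, 3 had a mean of at least 0.1 FPKM. Gdf11, a ligand of the activin branch, was at 9.44 ± 0.64, 23.1 ± 6.14 and 28.1 ± 0.261 FPKM (SD, n = 3 each), higher than the control with either BMP4 medium (1.25 and 1.57 on the log2 scale). Gdf15, a distant stress-induced member of the family, fell from 8.68 to 3.28 and 2.94 FPKM (-1.40 and -1.57). Between BMP4 and bFGF/BMP4 none of the 3 was called, with adjusted p-values of 0.22 for Gdf11 and 0.71 for Gdf15 (limma). Among 6 tested activin, inhibin and TGF-beta ligands, Inhbb, the activin beta B subunit, went from 10.6 FPKM in bFGF/EGF to 0.457 FPKM in bFGF/BMP4 and 2.62 FPKM in BMP4 (BMP4 against bFGF/BMP4, log2 fold change 2.30, adjusted p = 7.3e-05, limma). Tgfb3 was at 0.284, 0.600 and 4.35 FPKM (2.76, adjusted p = 0.00034, limma). Of these 6 genes, 1 was higher and 1 lower in bFGF/BMP4, 3 were higher and 1 lower in BMP4, each against bFGF/EGF, and 2 were higher in BMP4 than in bFGF/BMP4. Among all genes tested, 16.5% were higher and 14.1% lower, 21.3% and 15.4%, and 8.41% and 5.14%, in the same order.

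Of 12 other secreted antagonists tested, 3 were higher and 2 lower in bFGF/BMP4 than in bFGF/EGF, and 5 were higher and 2 lower in BMP4. Their median log2 fold changes were 0.66 and 0.88. Over all genes tested, 16.5% were higher and 14.1% lower in the first comparison, and 21.3% and 15.4% in the second. Htra1, a secreted serine protease that dampens TGF-beta family signals, was at 647.3 ± 24.6 FPKM with bFGF/BMP4, 108 ± 30.6 FPKM with BMP4 alone and 28.2 ± 4.05 FPKM in the control (SD, n = 3 each). Its log2 fold change was -2.63 in BMP4 against bFGF/BMP4 (adjusted p = 2.2e-05, limma), so it was highest with both factors together. Fstl1, a follistatin-like glycoprotein, rose from 3.75 to 32.9 and 56.4 FPKM (3.09 and 3.88 on the log2 scale). Nbl1, an antagonist of the same DAN family as gremlin and named after its values were seen, was at 26.0 ± 6.44, 73.7 ± 9.97 and 245.6 ± 46.5 FPKM (SD, n = 3 each). Its difference between BMP4 and bFGF/BMP4 was 1.73 (adjusted p = 0.00018, limma). In the same BMP4 libraries Nog was at 213.5 ± 30.5 FPKM. Vwc2, brorin, also named after its values were seen, fell from 1.45 FPKM in the control to 0.157 FPKM with bFGF/BMP4 and 0.0136 FPKM with BMP4 alone, the last from at most 3 fragments in a library. BMP4 against bFGF/BMP4 called 3 of the 12 higher and 1 lower, with a median of 0.41, against 8.41% and 5.14% of all genes.

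**Figure D4:**
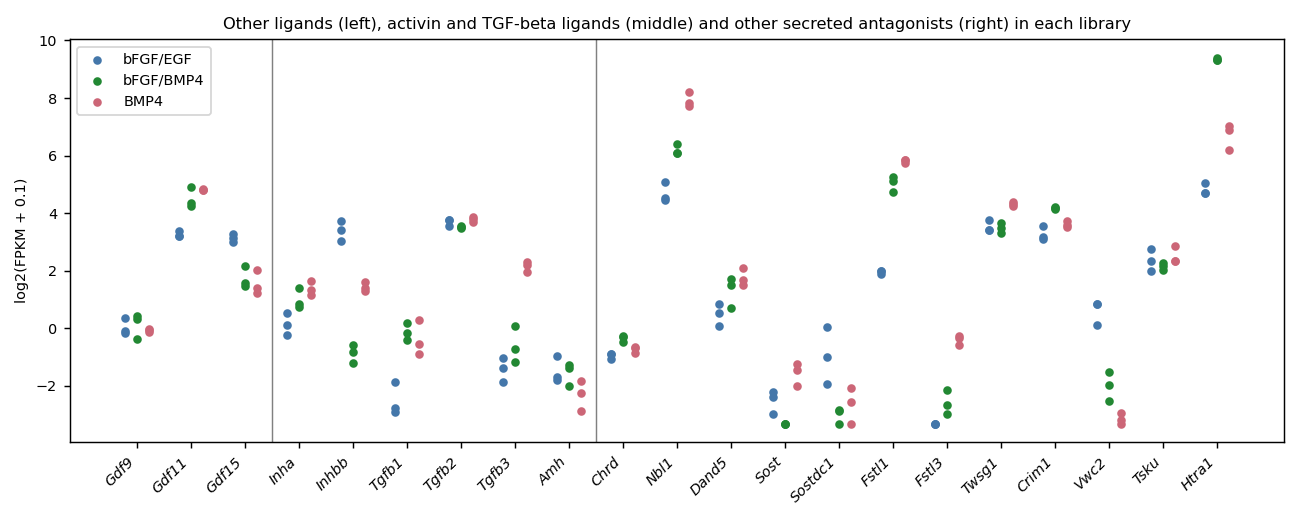
Log2(FPKM + 0.1) in each library for the other ligands and secreted antagonists with a mean of at least 0.1 FPKM, 3 points per group. Htra1 is highest in bFGF/BMP4, Nbl1 and Fstl1 are lowest in bFGF/EGF and highest in BMP4, and most other BMP and GDF ligands are missing because they fell below the filter.

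On the receiving side, 3 of 6 tested BMP receptors were higher in bFGF/BMP4 than in bFGF/EGF and none lower, and 2 were higher and 1 lower in BMP4. Bmpr1a, the type I receptor for BMP2 and BMP4, was at 23.2, 96.8 and 123.9 FPKM (2.08 and 2.44 on the log2 scale). Acvr2b fell to 0.629 FPKM in BMP4, and its call against bFGF/BMP4 was at the threshold itself (-1.19, adjusted p = 0.05, limma) and was lost under 12 of 18 alternative settings. Among co-receptors, Rgma rose to 29.6 and 49.3 FPKM from 10.9, and Eng fell to 0.120 FPKM in bFGF/BMP4 from 0.561. Of the 6 Smads, 3 were higher in each BMP4 group than in bFGF/EGF, Smad7 among them at 0.658, 18.2 and 25.4 FPKM. Of 14 tested BMP target genes, 14 were higher in bFGF/BMP4 and 13 in BMP4 than in bFGF/EGF. Smad6, Smad7 and Smad9, the 3 Smads just counted, are also among these targets. Between BMP4 and bFGF/BMP4, 3 of the 14 were higher and 1 lower. Id4 was at 132 FPKM in BMP4 and 53.2 FPKM in bFGF/BMP4 (log2 fold change 1.31, adjusted p = 0.00022, limma). The only tested chordin-cleaving protease, Bmp1, which is an enzyme despite its name, had 13.0, 15.9 and 18.6 FPKM and passed the fold threshold in no comparison. Over the 50 tested genes of all these lists, 24 were higher and 5 lower in bFGF/BMP4, 26 higher and 5 lower in BMP4, and 8 higher and 3 lower between BMP4 and bFGF/BMP4. Among all genes tested, 16.5% were higher and 14.1% lower in the first of these comparisons. The shares were 21.3% and 15.4% in the second, and 8.41% and 5.14% in the third.

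In bulk RNA, fewer cells of a type and less RNA per cell cannot be told apart, so levels of marker genes are given beside these results. Of 8 NSC markers, at least 7 had a group mean of 1 FPKM or more in every group. The 8 summed to 1045 to 1193 FPKM in bFGF/EGF, 556 to 634 in bFGF/BMP4 and 757 to 928 in BMP4, led by Fabp7. Against the control, 1 was higher and 3 lower in bFGF/BMP4, and 2 higher and 1 lower in BMP4. In BMP4 against bFGF/BMP4, 3 were higher and 0 lower. Nes, named after its values were seen, was at 151.3, 3.55 and 15.8 FPKM. Shares over all genes tested are given above with the counts of the 10 genes. The 8 astrocyte markers summed to 178 to 246, 887 to 889 and 1570 to 1659 FPKM, and Aqp4 alone went from 0.527 to 212 and 778 FPKM. Of the 8, 7 were higher and 1 lower than the control with either BMP4 medium, and 4 were higher and 2 lower in BMP4 than in bFGF/BMP4. The 1 lower than the control was Aldh1l1, at 135.4, 24.2 and 58.1 FPKM, and the 2 lower in BMP4 than in bFGF/BMP4 were Slc1a2 (12.6, 175.2 and 65.5 FPKM) and Gjb6 (0, 2.96 and 0.238 FPKM), all 3 named after their values were seen. The 7 ependymal markers in the table summed to 8.20 to 12.6, 10.6 to 11.5 and 58.8 to 71.3 FPKM, mostly Foxj1, with Tmem212 at 0 in all libraries. Their rise in BMP4 against bFGF/BMP4 (5 of 5 tested higher) moved with those of Bmp6, Fst and Grem1, and their part in these was not tested. The 6 markers of oligodendrocyte precursor cells, led by Olig1, summed to 1563 to 2264, 1313 to 1796 and 216 to 423 FPKM. Of these, 5 were lower in bFGF/BMP4 and 6 in BMP4 than in the control, as were Bmp7 and Chrdl1, and their part in those results was not tested either. The 8 neuron markers summed to 29.8 to 35.6, 17.2 to 23.0 and 108 to 188 FPKM, mainly Tubb3 (20.3, 17.0 and 144.7 FPKM). Of the 6 tested, 0 were higher and 2 lower in bFGF/BMP4 than in the control, and 2 higher and 1 lower in BMP4. Against bFGF/BMP4, 4 were higher and 1 lower in BMP4. Syt1, named after its values were seen, was at 3.84, 0.137 and 0.371 FPKM. The 7 oligodendrocyte markers summed to 19.9 to 31.1, 32.5 to 44.6 and 48.1 to 60.2 FPKM, mainly Cnp. Of 10 microglia markers, C1qa, C1qb and Itgam were at 0 in all libraries and at least 8 were below 1 FPKM in each group. Of 11 vascular and mural markers, Cldn5 was at 0 and at least 10 were below 1 FPKM in each group, and the sum was 0.236 to 0.431 FPKM in bFGF/EGF, 1.74 to 2.64 in bFGF/BMP4 and 4.10 to 5.67 in BMP4, led by Kdr. Of 8 fibroblast and meningeal markers, at least 7 were below 1 FPKM in each group, and they summed to at most 1.865 FPKM, led by Foxc1.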

How the data were processed

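The authors cleaned paired-end reads with fastp 0.19.7, aligned them to mm39 with HISAT2 2.0.5 and, per the processing notes of the labels, used featureCounts 1.5.0-p3. They deposited FPKM values for 55704 genes, one column per library. The annotation release, the strand setting and the program that computed FPKM are not given in the sources used here. Only the deposited FPKM values were analysed, so the authors' DESeq2 test, which takes counts, was not used. Raw counts accompany the article and would have allowed that test. They were not used here, and the rebuilt fragment numbers were not compared with them. Of the identifiers, 54749 were named from GENCODE vM39 (GRCm39).

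Each FPKM value is a whole fragment number times a constant of the gene and one of the library. The smallest whole numbers (within 0.02) were found for all 30860 genes above 0. A shared factor would make them too low. For the 9 detected genes described, the gene length implied was 0.767 to 1.0 of the exon length. Floors (3 fragments) cover counting error only, while the 95% intervals are limma's and measure the spread between libraries.

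limma 3.58.1 in R 4.3.3 was fitted with a trend to log2(FPKM + 0.1) of 20207 genes with a mean of at least 0.1 FPKM, all 9 libraries in one fit, with Benjamini-Hochberg adjustment. It was tested on simulated data, with a single fixed spread and changes planted only in genes above a minimum mean fragment number. That test therefore says little about genes with few fragments. Motifs were searched with Python 3.11.15. Genes named beyond the 10 followed a rule (the 2 largest called changes of each pathway list, the 2 most similar profiles among genes of at least 5 FPKM, Id1, Id3, Smad6 and Smad7, and the top marker of each list, 1 of which is not reported here). The genes and lists were chosen with earlier results of these data known. Alternatives were another pseudocount, other filters, scalings, limma-voom, a replicate block, pairwise fits, no fold threshold and each library left out.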

Additional observations from a re-analysis of the deposited data

How the results depend on the processing

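Under 18 alternative settings, Bmp6, Bmp7 and Fst kept each of their calls, as did Nog against bFGF/EGF, and Chrdl1, Bmper and Bambi in BMP4 against bFGF/EGF. Grem1 kept its calls in BMP4 against both other groups under 17 settings and was not tested with a minimum mean of 1 FPKM, nor was Bmp2. With a pseudocount of 1, which shrinks the change of low genes, the genes called in bFGF/BMP4 against bFGF/EGF went from 6 to 3. Genes called over the whole table then went from 6174 to 3544 in that comparison, from 7400 to 4364 in BMP4 against bFGF/EGF and from 2738 to 1449 in BMP4 against bFGF/BMP4. The last was 1800 with a minimum mean of 1 FPKM. With no fold threshold, 9819 genes were called in bFGF/BMP4 against bFGF/EGF and 4271 in BMP4 against bFGF/BMP4. Differences that had not passed the threshold changed sign with single libraries left out: Fst in bFGF/BMP4 against bFGF/EGF ranged from -0.15 to 0.39 on the log2 scale, and Nog in BMP4 against bFGF/BMP4 from -0.484 to 0.0336. Replicate numbers did not pair the samples (correlations of deviations of -0.0839 to 0.125), and a replicate block ended the calls of Bmp2 (1.31, adjusted p = 0.07, limma) and Chrdl1 (-1.02, adjusted p = 0.054, limma) in BMP4 against bFGF/BMP4, leaving 4 of 6, and no other call of these genes. Depth limits Bmp2, Bmp4, Bmp6 and Grem1, each with at most 28 fragments in every library outside the BMP4 group. It also limits Nog in the bFGF/EGF libraries, with 10, 14 and 13 fragments. The cause of the other changes was not tested.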
